A study of Saccharomyces cerevisiae with 4 samples.

Results

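Transcription of the yeast sulfur genes is set by the activator Met4 and the proteins that bring it to DNA or hold it back, and 6 genes that encode this circuit were followed in newly synthesized RNA. They are MET4 (YNL103W), MET28 (YIR017C), CBF1 (YJR060W), MET31 (YPL038W), MET32 (YDR253C) and MET30 (YIL046W). All 6 were found by their identifiers among the 4970 counted regions, and all 6 passed the filter on low counts, which left 4845 genes. The genes were selected on this same contrast, that is, the list was proposed after differences between Δsyc1 and wild-type yeast in sulfur genes had been seen. Their values are therefore given as a description and without a test.

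RNA synthesis was measured by 4tU-seq, in which RNA made during a short pulse of 4-thiouracil is purified through its thiol label and sequenced. The samples were 2 libraries of the deletion strain (genotype syc1::kanMX, here called the knockout) and 2 of wild-type, described in the study as biological replicates. Syc1 is the subunit that defines the APT complex, a relative of the cleavage and polyadenylation factor CPF. Both strains were BY4741, a laboratory strain that lacks MET17, the gene for the enzyme that turns sulfide into homocysteine. Both were grown at 30 °C in the rich medium YPD from an OD600 of 0.1 to 0.8 before a pulse of 6 min with 5 mM 4-thiouracil, and 100 ng of RNA went into each library. No other difference between the strains is given in the labels.

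In wild-type yeast Met4 is a bZIP activator that does not bind DNA by itself. It is recruited to promoters with Met28, a bZIP cofactor, by the bHLH protein Cbf1, which binds the letters CACGTG, or by the related zinc finger proteins Met31 and Met32. When sulfur amino acids are plentiful, the F-box protein Met30, as part of the ubiquitin ligase SCF, marks Met4 with ubiquitin and keeps it inactive. MET28, MET30 and MET32 are themselves known targets of Met4, so the circuit contains feedback. Cbf1 has a further role at centromeres.

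The windows before 3 of the genes are shown because CACGTG and the longer Met31 and Met32 letters AAACTGTGG both lie in them. Each window runs from 250 bases before to 50 bases after the start of the counted region, on sacCer3 (assembly R64, sequence from RefSeq), 5′ to 3′ along the gene. Capitals mark CACGTG and the letters AAACTGTGG or TGTGGC, a longer and a core form of the Met31 and Met32 site that overlap each other where both match. All the Met31 and Met32 letters in these windows lie on the strand opposite to the gene and therefore read in reverse complement.
MET28 (chrIX:384080-384379, minus strand): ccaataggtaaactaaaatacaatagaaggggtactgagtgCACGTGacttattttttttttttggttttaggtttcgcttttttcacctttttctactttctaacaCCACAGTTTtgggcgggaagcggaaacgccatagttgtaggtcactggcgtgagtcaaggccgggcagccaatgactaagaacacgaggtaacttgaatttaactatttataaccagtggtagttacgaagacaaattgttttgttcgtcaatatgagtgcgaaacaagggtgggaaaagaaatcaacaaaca
MET30 (chrIX:268326-268625, plus strand): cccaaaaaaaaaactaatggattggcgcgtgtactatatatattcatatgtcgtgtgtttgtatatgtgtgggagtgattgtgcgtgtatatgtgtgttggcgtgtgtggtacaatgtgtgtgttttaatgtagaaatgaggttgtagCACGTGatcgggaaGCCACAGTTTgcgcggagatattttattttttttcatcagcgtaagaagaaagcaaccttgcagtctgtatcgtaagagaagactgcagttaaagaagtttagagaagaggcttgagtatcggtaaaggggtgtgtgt
MET32 (chrIV:964719-965018, minus strand): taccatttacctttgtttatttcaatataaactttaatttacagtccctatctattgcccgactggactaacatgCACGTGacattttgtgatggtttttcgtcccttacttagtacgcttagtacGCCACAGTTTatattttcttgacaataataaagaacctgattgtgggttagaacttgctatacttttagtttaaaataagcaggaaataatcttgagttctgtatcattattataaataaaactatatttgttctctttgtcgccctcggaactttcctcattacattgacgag

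In MET30 the CACGTG and the Met31 and Met32 letters are separated by 8 bases, in MET32 by 45 and in MET28 by 60. For comparison, MET4 holds CACGTG and the core letters without the longer form, and CBF1 holds CACGTG alone. For these genes the stretch around the matches is shown with 12 bases on each side.
MET4 (chrXIV:427393-427488, plus strand): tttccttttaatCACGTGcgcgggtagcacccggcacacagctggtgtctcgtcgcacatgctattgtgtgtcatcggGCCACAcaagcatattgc
CBF1 (chrX:548579-548608, plus strand): acaacaattatcCACGTGcttatcacgttt

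Among the 4909 mRNA windows of this size, searched on both strands, CACGTG occurred in 4.09% and was found in 5 of the 6 regulator genes. The core TGTGGC occurred in 7.96% of windows and in 3 of the 6, MET4, MET30 and MET32. The longer form AAACTGTGG occurred in 0.631% of windows, 31 in number, and in 3 of the 6, MET28, MET30 and MET32. CACGTG and TGTGGC occurred together in 0.509% of windows and in 3 of the 6, MET4, MET30 and MET32. The window of MET31 held none of these letters, which says only that they are not in this window.

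**Figure D1:**
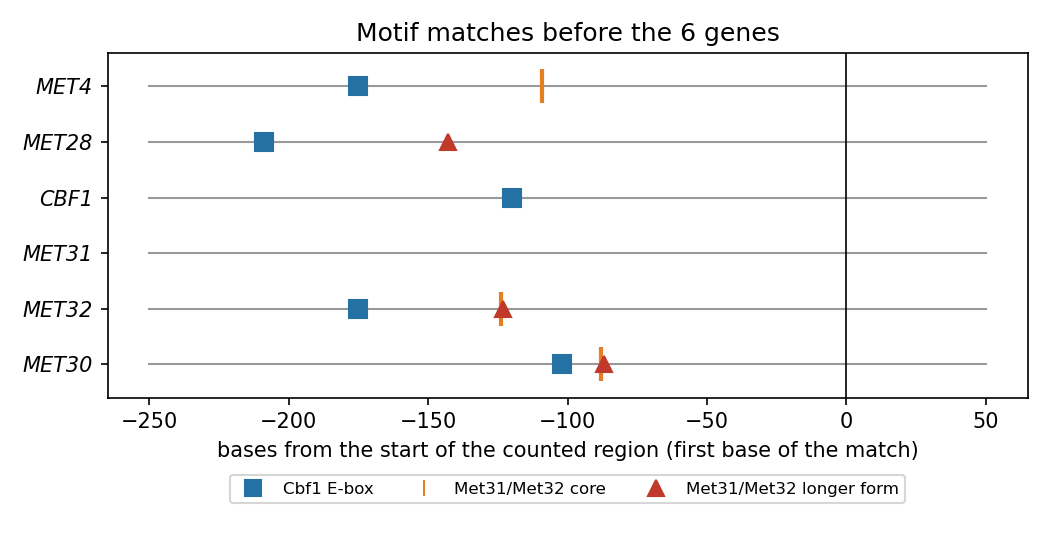
Position of exact matches to the Cbf1 letters and to the core and longer Met31/Met32 letters in the window of each regulator gene, in bases from the start of the counted region. MET28, MET30 and MET32 carry the Cbf1 letters and the longer form, with CACGTG at -209, -102 and -175, and MET31 carries no match.

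The libraries held between 22880058 and 36175417 counts, and the knockout libraries held 1 and 2 counts of the deleted gene SYC1 against 743 and 794 for wild-type. MET17, missing from the strain background, was at 0 counts throughout, and a count of 0 allows a level of up to 3 counts (no more than 0.140 CPM in any library). The 6 regulator genes together took 0.12% and 0.112% of the counts of the knockout libraries, compared with 0.0851% and 0.0901% for wild-type. CPM is the count relative to the library's total, scaled by TMM and set to a common library size, so that each value is relative to the other RNAs of its library. The lowest count of a regulator gene was 391, for MET31, at which counting error alone is 5.06%, which leaves out any variation between cultures.

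Of the regulators, the activator gene MET4 overlapped between the groups and its DNA-binding partners CBF1 and MET31 were slightly lower in the knockout, whereas the cofactor MET28, the zinc finger gene MET32 and the inhibitor gene MET30 were higher in the knockout. The study's thresholds (adjusted p below 0.1, fold change above 1.5) were applied to edgeR's quasi-likelihood fit across all genes, and 3 of the 6 were past them as higher and 0 as lower. Of all genes tested, 9.08% were called higher and 8.15% lower. Since the genes were chosen on this contrast, nothing is read from that count. With DESeq2 the count was also 3 higher and 0 lower (9.33% and 7.66% of all genes tested). With DESeq2 against a fold change of 1.5, 229 of all genes tested were higher and 127 lower. The study itself, which used DESeq2, reported 229 mRNAs as higher. The 440 genes that edgeR called higher here were counted over all genes tested, so tool and gene set differ between these counts. At an unadjusted p under 0.05 in edgeR, 3 of the 6 were higher and 2 lower, beside 32.3% and 33.9% of all genes tested. The median log2 fold change of the 6 genes was 0.50, beside -0.02 over all genes tested. Both knockout libraries lay above both wild-type libraries in 3 of the 6 (40.5% of all genes tested) and below them in 2 (43.2% of all genes tested).

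MET4 (YNL103W, chromosome XIV, 427580 to 429836, plus strand) encodes the activator itself. Its counts were 9597 and 7998 for the knockout against 13207 and 14672 for wild-type, which is 382.5 and 374 CPM against 348 and 393 CPM. Both knockout libraries lay between the wild-type libraries, so the groups overlapped. The log2 fold change was 0.03 ± 0.06 (SE, n = 2 libraries per group).

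MET28 (YIR017C, chromosome IX, 383348 to 384129, minus strand) encodes the bZIP cofactor that holds Met4 on DNA. Its counts were 6358 and 4840 for the knockout against 2365 and 2204 for wild-type, which is 253 and 226 CPM against 62.4 and 59.05 CPM. Both knockout libraries were far above both wild-type libraries. The log2 fold change was 1.98 ± 0.07 (SE, n = 2 per group), a 3.95-fold higher level, and 99.2% of all genes tested had a lower value. The replicates differed by 0.16 in the knockout and 0.08 in wild-type on the log2 scale.

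CBF1 (YJR060W, chromosome X, 548711 to 550400, plus strand), whose product binds the E-box letters CACGTG, was counted 3907 and 3158 times for the knockout against 6756 and 6699 times for wild-type. Its levels were 156 and 147.5 CPM in the knockout against 178 and 179.5 CPM in wild-type. Both knockout libraries were below both wild-type libraries, by a gap of 0.19 on the log2 scale. The log2 fold change was -0.24 ± 0.05 (SE, n = 2 per group), under the fold change minimum. A lower value was found in 26.2% of all genes tested.

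The paralogs MET31 and MET32 encode zinc finger proteins of 177 and 191 residues that are 49.7% identical over 167 aligned positions. MET31 (YPL038W, chromosome XVI, 480508 to 481180, plus strand) was counted 528 and 391 times for the knockout against 944 and 1086 times for wild-type. Its levels were 21.0 and 18.3 CPM in the knockout against 24.9 and 29.1 CPM in wild-type, so that both knockout libraries were the lower ones. The log2 fold change was -0.45 ± 0.11 (SE, n = 2 per group), also under the fold change minimum. Its replicates differed by 0.20 in the knockout and by -0.22 in wild-type (replicate 1 minus 2, log2 scale), compared with a gap of 0.24 between the groups. A lower log2 fold change than that of MET31 was found in 12.8% of all genes tested.

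MET32 (YDR253C, chromosome IV, 963911 to 964768, minus strand) was counted 2172 and 1706 times for the knockout against 534 and 474 times for wild-type. Its levels were 86.6 and 79.7 CPM in the knockout against 14.1 and 12.7 CPM in wild-type. The groups were separated by 2.50 on the log2 scale at their nearest libraries. The log2 fold change was 2.63 ± 0.08 (SE, n = 2 per group), a 6.21-fold higher level, and 99.8% of all genes tested had a lower value.

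MET30 (YIL046W, chromosome IX, 268576 to 270686, plus strand) encodes the F-box protein that recognizes Met4. Its counts were 8854 and 7562 for the knockout against 6975 and 6597 for wild-type, which is 353 and 353 CPM against 184 and 177 CPM. The knockout libraries were nearly equal and both above wild-type. The log2 fold change was 0.97 ± 0.05 (SE, n = 2 per group), a 1.96-fold higher level, and 96.1% of all genes tested had a lower value.

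**Figure D2:**
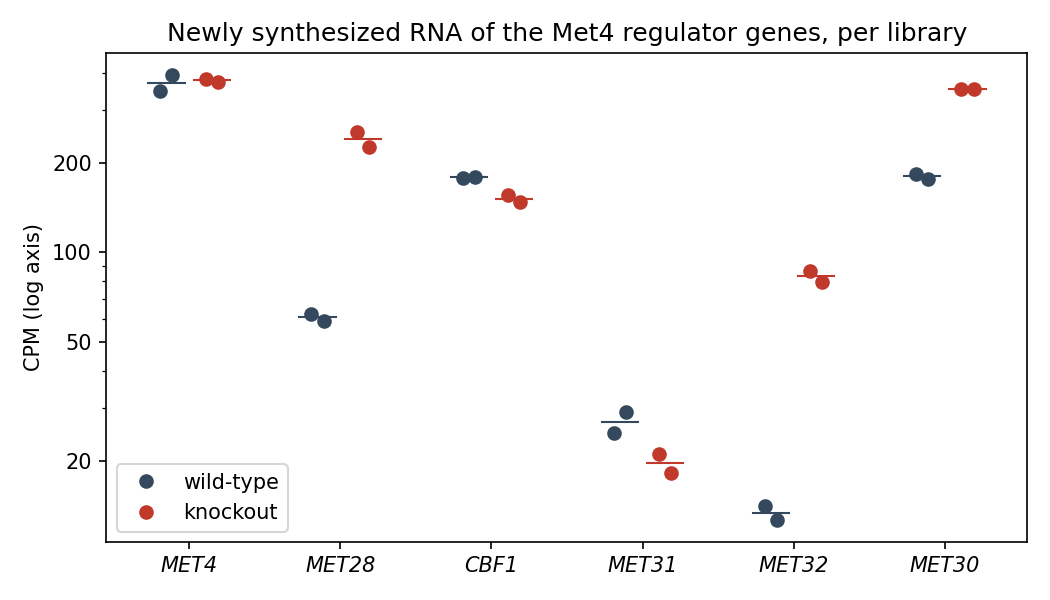
CPM on a log axis of each regulator gene in the 2 wild-type and 2 knockout libraries, with lines at the group means. The knockout points of MET28, MET32 and MET30 lie above the wild-type points, those of CBF1 and MET31 lie below, and those of MET4 lie between the wild-type points of 348 and 393 CPM.

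**Figure D3:**
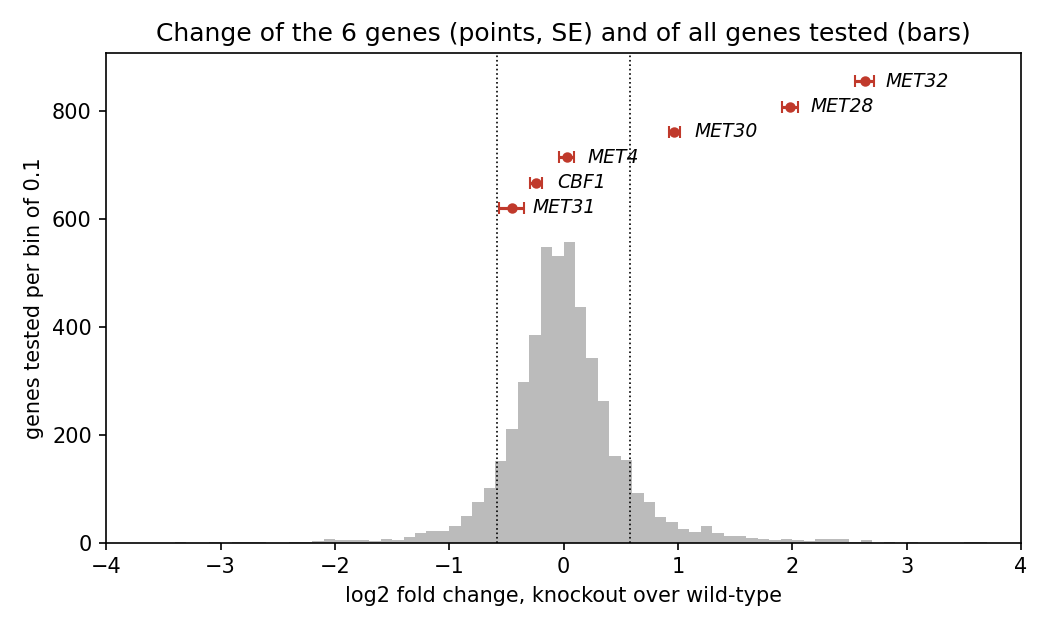
Log2 fold change of the 6 genes (points, with SE) above the distribution over the 4845 genes tested, with dotted lines at a fold change of 1.5 and SYC1 beyond the left edge. MET31, CBF1 and MET4 sit between the dotted lines, and MET30, MET28 and MET32 lie to the right at 0.97, 1.98 and 2.63.

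Levels can be compared between genes only per length, and were therefore also expressed as CPM per kilobase of counted region. In wild-type the order was MET4 (164 ± 14.0), CBF1 (106 ± 0.54), MET30 (85.4 ± 2.42), MET28 (77.6 ± 3.01), MET31 (40.1 ± 4.41) and MET32 (15.6 ± 1.14 CPM per kilobase, SD, n = 2). No neighbours in this order overlapped between their libraries, although MET30 and MET28 were close, at 83.7 for the lower library of MET30 and 79.8 for the higher of MET28. The median of all genes tested was 65.1 CPM per kilobase in wild-type, so that the zinc finger genes were the 2 below it, MET32 above only 9.99% of the genes.

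In the knockout the order changed to MET28 (307 ± 24.7), MET4 (167.5 ± 2.78), MET30 (167 ± 0.13), MET32 (96.9 ± 5.66), CBF1 (89.7 ± 3.43) and MET31 (29.2 ± 2.92 CPM per kilobase, SD, n = 2). MET4 and MET30 overlapped and did not differ beyond their spread, and MET32 and CBF1 were separated only by 92.9 against 92.1. MET28 thus went from below 3 of the other regulators to above all 5, and MET32 from last to above CBF1 and MET31. The place of MET28 below MET30 in wild-type holds per length of the counted region and is reversed with reference gene lengths.

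Ratios within a library do not depend on the scaling between libraries. MET32 over MET31, per kilobase, was 3.23 and 3.42 in the knockout against 0.444 and 0.342 in wild-type. Of the paralogs, MET31 was thus the more abundant in both wild-type libraries and MET32 in both knockout libraries, with an 8.53-fold difference in the ratio. MET28 over MET4 was 1.91 and 1.75 in the knockout against 0.517 and 0.434 in wild-type. MET30 over MET4 was 0.986 and 1.01 in the knockout against 0.565 and 0.481 in wild-type, so that the inhibitor gene reached the level of the activator gene. CBF1 over MET4 was 0.544 and 0.527 in the knockout against 0.683 and 0.610 in wild-type.

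**Figure D4:**
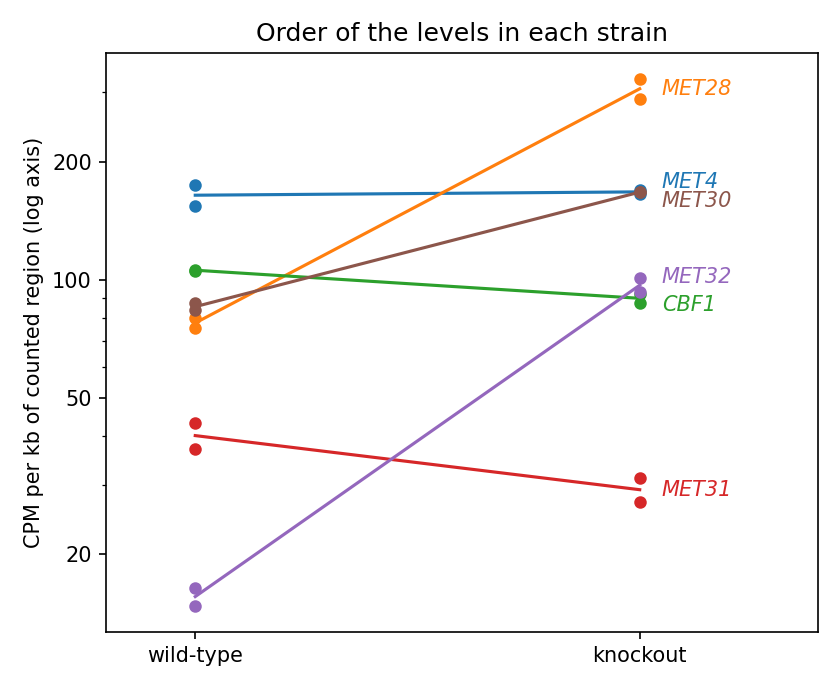
CPM per kilobase of counted region on a log axis in wild-type and knockout, with points for libraries and lines between group means. The line of MET32 crosses that of MET31 on its way from 15.6 to 96.9, and MET28 goes from 77.6 to 307, above MET4.

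Region length was compared because log2 fold changes rose with it across the 4802 mRNAs tested (Spearman rho 0.33, taken over genes that are not independent of each other). With an offset that removes the trend with length, the log2 fold changes were 2.16 for MET28, 2.79 for MET32 and 0.88 for MET30. MET31, the shortest of the 6 regions with 673 bases, moved from -0.45 to -0.25, CBF1 from -0.24 to -0.28 and MET4 from 0.03 to -0.07.

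The regions next to the regulator genes were read with them. MET32 overlaps BTT1 on the other strand over 616 bases, 71.8% of the MET32 region. BTT1, which encodes a subunit of a ribosome-associated complex, was counted 354 and 331 times for the knockout against 1263 and 1241 times for wild-type and fell (log2 fold change -1.17 ± 0.08 SE, edgeR adjusted p 9.5e-06), opposite to MET32. Whether the counting used strand is not stated, so reads of this pair cannot be told apart with certainty. Of the 26 regions lying wholly under regions of the opposite strand, 26 had counts. Counting without strand would leave such regions without counts if reads shared between regions were dropped. How shared reads were treated is not stated either. MET28 overlaps YIR016W on the other strand over 154 bases, and YIR016W was under the fold change minimum (0.15 ± 0.07 SE, edgeR adjusted p 0.0861). The other 4 regulator regions overlap no counted region.

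Genes that start near a regulator gene in the opposite direction share its upstream sequence. CHL4, a kinetochore gene that starts 266 bases from MET32, was at 52.6 ± 0.88 CPM in wild-type and 105 ± 3.10 CPM in the knockout (SD, n = 2). It rose by 1.00 ± 0.06 (edgeR adjusted p 2.84e-06), and its window holds the same copy of AAACTGTGG as that of MET32. YAP5, a bZIP gene that starts 459 bases from MET28, rose by 0.62 ± 0.06 (edgeR adjusted p 5.69e-05). LEU4, 715 bases from MET4, had a log2 fold change of -0.03 ± 0.07 (edgeR adjusted p 0.708). On the same strand, PIG2, 366 bases downstream of MET30, rose by 0.72 ± 0.05 (edgeR adjusted p 9.46e-06), and PTK2, 269 bases upstream of CBF1, rose by 0.64 ± 0.05 (edgeR adjusted p 1.62e-05). The other 3 tested neighbours were under the fold change minimum, with log2 fold changes of -0.40 ± 0.06 for EGD1, 196 bases downstream of MET31, 0.43 ± 0.06 for ISM1, 1480 bases upstream of MET31, and 0.28 ± 0.06 for NTA1, 2565 bases downstream of CBF1 (SE).

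The longer Met31 and Met32 letters were followed beyond the regulator genes. With the 6 genes left out, 28 windows held AAACTGTGG, and 27 of these genes were tested. Of the 27, 17 rose (63.0%, beside 9.08% of all genes tested) and 1 fell, with a median log2 fold change of 0.86. MET3, the ATP sulfurylase that starts sulfate assimilation, rose most (3.01 ± 0.09 SE), YJR020W was the gene that fell, and both were named after their values were seen. Carriers of the core TGTGGC moved less: of 378 tested, 61 rose (16.1%) and 31 fell (8.20%), with a median of 0.06. Of 192 tested genes with CACGTG, 34 rose (17.7%) and 15 fell (7.81%), with a median of 0.14. Of the 4579 with neither AAACTGTGG nor CACGTG, 8.43% rose and 7.49% fell. The 31 windows held 27 copies of the longer form, since 4 copies lie between genes that start in opposite directions (MET32 and CHL4, GTO1 and CYS4, MMP1 and MHT1, YLR179C and SAM1) and are counted for both. Every gene of these pairs rose, so the 17 genes that rose do not stand for 17 separate sites. MET3, MHT1, MET6, MMP1, MUP3, CYS4 and SAM1 are also in the pathway lists that follow, so those lists are not independent of the carriers. The carriers are a description and no test was made of them as a set.

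**Figure D5:**
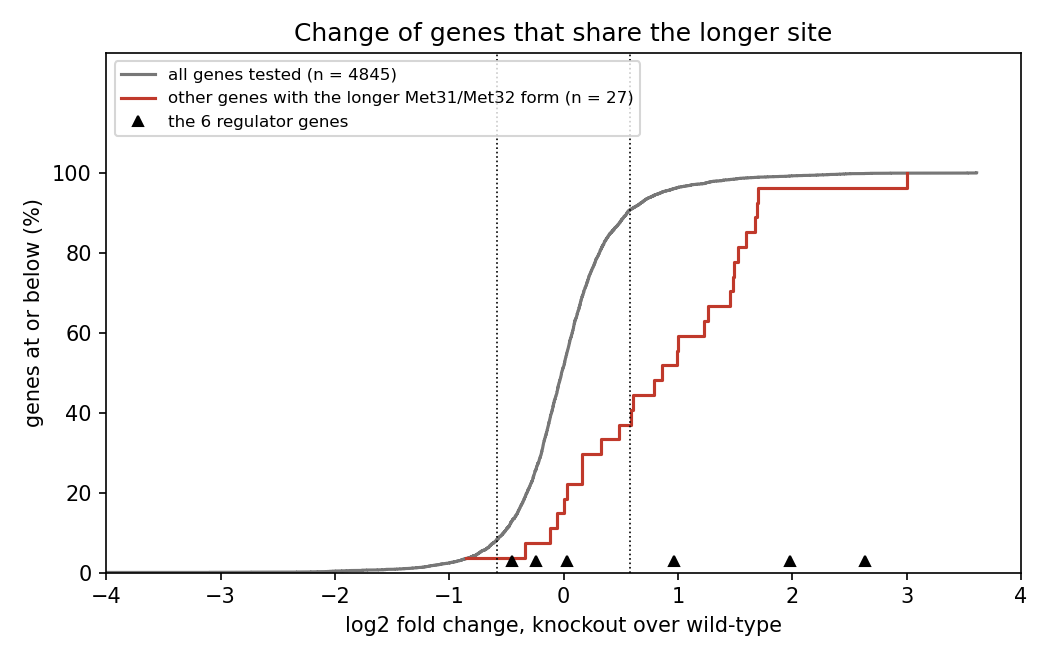
Cumulative share of genes, in percent, against log2 fold change for all 4845 genes tested (grey) and for the 27 other genes whose window holds the longer Met31/Met32 letters (red), with the 6 regulator genes as triangles and dotted lines at a fold change of 1.5. The red curve lies to the right of the grey one, with a median of 0.86.

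The pathway that the circuit governs was counted from lists of its genes, written from textbook knowledge with earlier results of these data known. Of all genes tested, 9.08% rose and 8.15% fell, with a median log2 fold change of -0.02, and each list is to be read beside these shares. Of 12 genes of sulfate assimilation, which turns sulfate into homocysteine, 9 were counted and 8 tested, and all 8 rose (median log2 fold change 2.37). The largest changes were in MET3, MET1 (a siroheme synthesis enzyme, 2.69 ± 0.09 SE), MET16 (the enzyme that makes sulfite, 2.45 ± 0.09 SE) and MET8 (also of siroheme synthesis, 2.45 ± 0.13 SE). The sulfate permease genes SUL1 and SUL2 and the sulfite reductase gene MET5 were not analysed here.

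Of 13 genes that make methionine, cysteine and S-adenosylmethionine, 11 were tested and 6 rose (median 0.61), beside 9.08% of all genes tested. SAM2, an S-adenosylmethionine synthetase (1.79 ± 0.08 SE), MHT1, which methylates homocysteine (1.69 ± 0.07 SE), the methionine synthase gene MET6 (1.67 ± 0.09 SE) and the methylenetetrahydrofolate reductase gene MET13 (1.39 ± 0.05 SE) changed most. Of 8 genes for uptake and salvage of organic sulfur, 7 were tested and 6 rose (median 1.48), with SEO1 (3.61 ± 0.09 SE) and the cysteine transporter gene YCT1 (3.53 ± 0.06 SE) highest, followed by the S-methylmethionine permease gene MMP1 (1.60 ± 0.08 SE) and the methionine permease gene MUP3 (1.48 ± 0.06 SE). In these 3 lists 0 genes fell with edgeR or with DESeq2 (8.15% and 7.66% of all genes tested). At an unadjusted p under 0.05 in edgeR 0 were lower, beside 33.9% of all genes tested.

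Genes for SCF ubiquitin ligases and for the Cdc48 segregase were counted next. Of 12 genes for SCF subunits, other F-box proteins and the Cdc48 segregase, which takes Met30 off the ligase, 10 were tested. With edgeR 0 of the 10 passed both thresholds, and with DESeq2 also 0, while 6 were higher and 2 lower at an unadjusted p under 0.05, a cutoff that 32.3% of all genes tested passed as higher and 33.9% as lower. The median was 0.17 and the range ran from -0.29 for HRT1, the RING subunit, to 0.49 for CDC48, which were named after their values were seen. MET30, at 0.97, lay outside this range. Of 16 other bHLH and bZIP factors, families to which Cbf1, Met4 and Met28 belong, 14 were tested and 3 rose, beside 9.08% of all genes tested. They were CIN5 (1.24 ± 0.05 SE), the oxidative stress factor gene YAP1 (0.76 ± 0.06 SE) and YAP5 (0.62 ± 0.06 SE). The median of the 14 was -0.06. With edgeR 0 fell, with DESeq2 also 0 (8.15% and 7.66% of all genes tested). At an unadjusted p under 0.05, 5 of the 14 were lower, close to the 33.9% of all genes tested.

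Genes with the most similar profiles were found by the distance between log2 CPM values over the 4 libraries, each gene centred on its own mean, among 4838 others. Nearest to MET32 were RTC3 (distance 0.043) and MET1 (0.14), and only 3 genes lay within 0.2. Nearest to MET28 were CYB2, a lactate dehydrogenase gene (0.095), and SER33, of serine synthesis (0.11), with 7 genes within 0.2. Nearest to MET30 were DCS1 (0.033) and CYS4, which encodes cystathionine beta-synthase (0.042), with 101 within 0.2. For MET31 they were UBC7 (0.017) and NDD1 (0.020), for CBF1 LAS1 (0.0082) and CSL4 (0.011), and for MET4 APM2 (0.031) and YCK1 (0.043), with 313, 1330 and 1164 genes within 0.2. The distance was taken over the same 4 libraries that chose the regulator genes.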

How the data were processed

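Newly synthesized RNA of 2 knockout and 2 wild-type libraries was analysed, grouped and numbered by sample title. The authors aligned reads to sacCer3 with STAR 2.3.0, used SAMtools to keep proper pairs and ran HTSeq to obtain counts for each gene, per their methods and processing notes. The deposited table holds these raw counts, and 0 of its columns matched no sample. The authors' annotation file gives the borders of the 4970 regions, all inside the chromosomes of assembly R64. A further deposited table, with the authors' own DESeq2 fold changes and p-values, was not used.

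Genes with a mean count, divided by DESeq2 size factors, of at least 30 in either group were kept, which is the study's filter. Counts were scaled by TMM and fitted with edgeR 4.0.16 (quasi-likelihood, group as the only term) in R 4.3.3, with Benjamini-Hochberg adjustment over all 4845 genes, and DESeq2 1.42.0 was an alternative. SE of log2 fold changes was computed by dividing the absolute value by the root of F. The fit was tested on simulated data. Log2 CPM values had a prior count of 2. Symbols were taken from RefSeq.

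The 6 genes and the lists were chosen with earlier results of these data known. Named beside the 6 genes are SYC1, MET17, the up to 4 most changed called genes of each list, and the 2 genes nearest in profile to each member. Regions adjoining the 6 genes and carriers of the searched letters are named in addition. Windows were read from the RefSeq genome at the starts of the deposited regions. Proteins were translated from RefSeq coding exons and aligned globally (BLOSUM62, Biopython 1.88). No spike-in was used here. Figures were drawn with matplotlib 3.10.9.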

Additional observations from a re-analysis of the deposited data

How the results depend on the processing

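MET28, MET30 and MET32 stayed higher and past the thresholds in all 15 alternatives that give a fold change, with log2 fold changes of 1.83 to 2.16, 0.82 to 0.998 and 2.48 to 2.79. MET31 ranged from -0.61 to -0.25, CBF1 from -0.39 to -0.20 and MET4 from -0.12 to 0.12, with both signs. Without normalization factors the all-gene median was -0.17 in place of -0.02, 655 genes were lower, 68.0% of all calls against 47.3%, and 1 regulator gene, MET31, was called lower. Upper-quartile factors gave 58.4% lower calls and the length offset 36.9%. With no fold change minimum 1623 genes were higher and 1719 lower, among them 2 regulator genes lower, 6 SCF and Cdc48 genes higher and 2 lower, and 5 other bHLH and bZIP genes lower. DESeq2 against a fold change of 1.5 called 229 higher and 127 lower. Leaving out a library in turn gave 423 to 497 higher and 358 to 459 lower. Searching only the bases before the start lowered the share of windows with TGTGGC to 6.89%. With reference gene lengths 4 of the 6 genes kept their place in the wild-type order, while MET28 and MET30 exchanged places.

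Replicate numbers in the titles do not state a pairing, and same-numbered libraries deviated from their group means with a correlation of -0.18 over genes. The fit with a replicate block called 441 genes higher and 397 lower, and with block and length offset 476 and 279. The crossed pairing, chosen after the data were seen, called 441 higher and 398 lower. With 2 libraries per group, only the spread between these libraries is measured.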
